A study of Mus musculus with 2 samples.

Results

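Receptor tyrosine kinases and the growth factors that bind them were examined in the C2C12 line, WT and Gne KO. The group was set as a list of gene symbols, 32 receptors and 17 ligands, and all 49 had a row among the 21829 genes of the deposited values. Expression was compared between 2 libraries of RNA from C2C12, an immortalised mouse myoblast line with both lines grown in DMEM with fetal bovine serum and gentamicin. The WT library came from the unedited line and the KO library from a Gne KO line, which the study made by CRISPR-Cas9 editing after electroporation and isolation of single clones. Each line was represented by 1 library, so no difference below has a replicate check, and what the edit did and what sets a single clone apart from its parent line cannot be told apart.

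Receptor tyrosine kinases span the plasma membrane, and most are activated when a ligand brings receptor molecules together so that their kinase domains phosphorylate each other. The phosphorylated tails recruit adaptors that feed RAS-ERK and PI3K-AKT signalling. In muscle progenitors, FGF, HGF and EGF-family signals are known to promote proliferation and to restrain differentiation, and PDGF acts mainly on mesenchymal cells that carry its receptors.

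The deposited values carry no unit and are read here as FPKM, a level scaled to transcript length and to library size. The study methods name TPM, another measure per length, and that possibility was not settled. Sequencing depth was not given. Differences are expressed as log2((KO + 1)/(WT + 1)), which understates changes of low genes, and 10542 genes whose mean level reached 1 FPKM were counted. A difference was called past 2-fold when this value lay beyond 1 in either direction. The interquartile range of all genes ran from -0.21 to 0.23, with a median of 0.0061. Gne, the edited gene, was at 6.67 FPKM in WT and 7.34 FPKM in KO, so its RNA level does not tell the libraries apart. In low genes with a single annotated transcript, the first step of the values was used to estimate what 1 fragment was worth, and the number of fragments behind a low value was estimated from it. These are estimates that rest on an assumed transcript length, and no interval is given with them.

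The labelled cell type was checked against marker lists. Of the 8 myoblast markers 5 passed the filter, and 4 of these were lower in KO by more than 2-fold and 1 was higher. Their summed level was 199 FPKM in WT and 25.8 FPKM in KO. Myod1, the master myogenic factor, was at 59.97 FPKM in WT and listed at 0 in KO, and Pax7 was listed at 0 in both. An exact 0 in such values can be a failed estimate, so the size of the Myod1 difference is uncertain. Des was at 97.6 FPKM in WT and 3.84 FPKM in KO, Cdh15 at 16.6 and 0.701 FPKM and Chrna1 at 15.3 and 0.917 FPKM. Myf5, the 1 that was higher, was at 9.14 and 20.3 FPKM. Myoblast is thus the name of the line, and most of its markers past the filter were lower in KO. Of the 8 fibroblast markers, which myoblast cultures also express in part, 4 passed, with summed levels of all 8 of 605.5 FPKM in WT and 1428 FPKM in KO. Nearly all of that difference came from 3 collagen genes. Col1a1 was at 9.66 FPKM in WT and 273 FPKM in KO, Col1a2 at 237 and 621 FPKM and Col3a1 at 347 and 520 FPKM. Pdgfra differed little, at 10.8 and 12.3 FPKM, and Dcn was below the filter, at 0.272 and 1.68 FPKM. Lum, Tcf21 and Thy1 were listed at 0 in both libraries. The 7 endothelial markers summed to 3.82 and 4.51 FPKM, nearly all from Egfl7, with Vwf at 0 and 0.052 FPKM and Pecam1 at most 0.011 FPKM. The 7 haematopoietic markers summed to 139 FPKM in WT, of which Cd34 gave 136 FPKM, and to 11.7 FPKM in KO, while Ptprc, Adgre1, Itgam and Tyrobp were listed at 0 in both. The 6 epithelial markers summed to 18.9 and 6.22 FPKM, nearly all from Krt14, and Epcam was listed at 0. The 7 neural and glial markers summed to 0.469 and 0.471 FPKM. Whether the lower myoblast markers and the higher collagen RNA bear on the values of receptors and ligands was not tested. In bulk RNA, fewer cells of a type and less RNA per cell cannot be told apart.

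To show the regulatory sequence in front of the members that differed most, promoters were read from the RefSeq table of GRCm38.p6, which held an entry for 38 of the 49 members, all but Csf1r, Erbb3, Ereg, Fgf1, Fgfr1, Hbegf, Insr, Nrg1, Ntrk3, Pdgfb and Ret. The 250 bases before the annotated start are given 5′ to 3′ for Fgf10, higher in KO, for Areg and Ptk7, lower in KO, and for Flt1 and Gas6, which were near or at 0 in 1 of the 2 libraries. Capitals mark CAGCTG, an E-box of the kind bound by MyoD, GGAATG, a motif of TEAD factors, and TGACGTCA, the cAMP response element, each on either strand.
Fgf10, chr13:118714449-118714698, plus strand: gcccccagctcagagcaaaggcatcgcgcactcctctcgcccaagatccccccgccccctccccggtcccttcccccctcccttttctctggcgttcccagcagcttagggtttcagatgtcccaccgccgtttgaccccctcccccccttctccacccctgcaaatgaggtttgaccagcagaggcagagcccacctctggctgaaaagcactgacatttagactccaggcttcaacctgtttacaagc
Areg, chr5:91139349-91139598, plus strand: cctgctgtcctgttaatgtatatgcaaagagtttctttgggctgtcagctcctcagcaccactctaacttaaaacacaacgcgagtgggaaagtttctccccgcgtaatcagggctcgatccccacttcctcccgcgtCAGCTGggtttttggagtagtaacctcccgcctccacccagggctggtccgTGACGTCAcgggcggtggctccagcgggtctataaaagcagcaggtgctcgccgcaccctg
Ptk7, chr17:46629505-46629754, minus strand: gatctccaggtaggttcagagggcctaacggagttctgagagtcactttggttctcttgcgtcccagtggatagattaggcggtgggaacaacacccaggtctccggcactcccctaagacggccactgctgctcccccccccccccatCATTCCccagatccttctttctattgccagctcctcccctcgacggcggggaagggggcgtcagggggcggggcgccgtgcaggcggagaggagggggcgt
Flt1, chr5:147726012-147726261, minus strand: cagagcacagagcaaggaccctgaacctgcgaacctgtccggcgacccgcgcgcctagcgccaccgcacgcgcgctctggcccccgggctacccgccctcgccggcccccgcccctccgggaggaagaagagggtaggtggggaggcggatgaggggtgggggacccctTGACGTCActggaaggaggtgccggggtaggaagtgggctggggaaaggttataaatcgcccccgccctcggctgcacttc
Gas6, chr8:13494536-13494785, minus strand: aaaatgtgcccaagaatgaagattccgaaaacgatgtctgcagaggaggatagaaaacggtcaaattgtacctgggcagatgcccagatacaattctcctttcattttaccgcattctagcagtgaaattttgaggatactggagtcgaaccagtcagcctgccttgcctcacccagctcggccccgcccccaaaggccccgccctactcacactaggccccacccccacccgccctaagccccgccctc

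The Areg window held CAGCTG and TGACGTCA, the first bases of which lay 112 and 61 bases before the start. The Flt1 window held TGACGTCA at 81 bases before the start, and the Ptk7 window held GGAATG on the opposite strand at 101 bases before the start. Neither the Fgf10 nor the Gas6 window held any of the motifs searched. Of the 38 members with an entry, 4 held CAGCTG, 5 held GGAATG, 3 held TGANTCA, the AP-1 site, and 2 held TGACGTCA. Among all 32851 promoters in the table, 13% held CAGCTG, 12.6% GGAATG, 6.75% TGANTCA and 1.55% TGACGTCA. The last motif was added after the sequences had been read, and the matches are descriptions of these windows. Of the 2 members with TGACGTCA, Areg was lower in KO, and Flt1, which was below the filter, was higher. Whether the motif bears on either difference was not tested.

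Which receptors and ligands did these C2C12 lines express, and how did their levels differ between WT and KO? Of the 49 members, 29 passed the filter, 14 receptors and 15 ligands. Pdgfb and Fgf10, both ligands, were more than 2-fold higher in KO, 2 of 29 against 2.84% of all genes. Pdgfb passed the filter only through KO and so could only be higher. The ligand Areg and the receptor Ptk7 were more than 2-fold lower, also 2 of 29 against 3.43% of all genes. In either direction these were 4 of 29 members against 6.27% of all genes, with no test behind either share. The other 25 stayed within 2-fold on this scale, although the plain ratio of Pdgfc was 2.08. The median log2 fold change of the 29 was 0.16, and it was 0.18 for the receptors and 0.13 for the ligands. Of the 29, 18 were higher and 11 lower in KO by any amount, while 50.7% of all genes were higher. The values ran from -1.36 for Areg to 2.04 for Pdgfb.

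**Figure D1:**
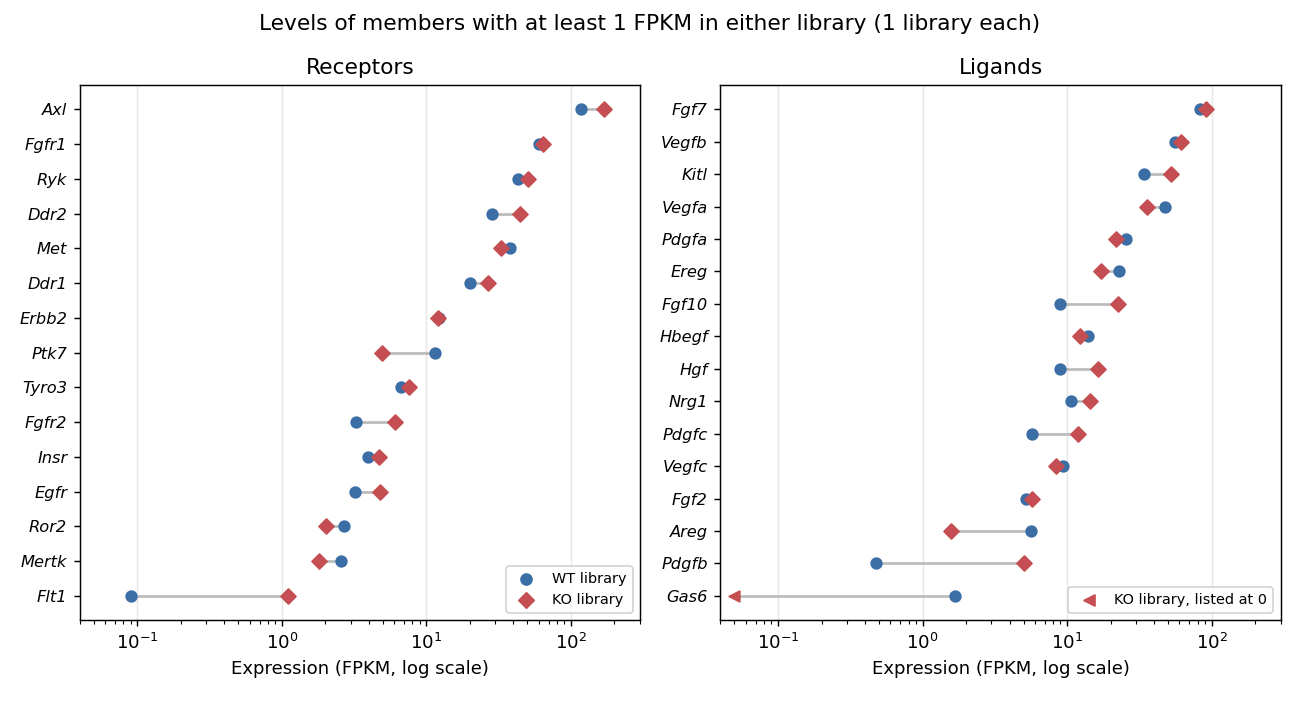
Expression in FPKM on a log scale for the members with at least 1 FPKM in either library, receptors on the left and ligands on the right, with circles for the WT library and diamonds for the KO library, 1 library each. Among members above 0 in both libraries, the widest gaps are those of Flt1, Pdgfb, Areg, Fgf10 and Ptk7. The triangle for Gas6, listed at 0 in KO, is drawn at the left edge because a log axis has no 0, so the width of its gap has no meaning.

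Among the members past the filter, Pdgfb had the largest log2 fold change. It encodes the B chain, which binds both PDGF receptors, and lies on the minus strand of chromosome 15, between positions 79880009 and 79899181 of GRCm39, the build of all positions below. It was at 0.474 FPKM in WT and 5.06 FPKM in KO, an estimated 41 and 383 fragments, and it passed the filter only through KO. The KO value was 10.7 times the WT value, and its log2 fold change was 2.04, above that of 99.4% of all genes. Pdgfc, whose protein is secreted in a latent form and cleaved to become active, was at 5.75 FPKM in WT and 11.95 FPKM in KO, a log2 fold change of 0.94 that fell just short of the threshold. Pdgfa, which encodes the A chain, went the other way, with 25.8 FPKM in WT and 21.9 FPKM in KO and a log2 fold change of -0.22. In the sum of the 3 levels, Pdgfb made up 1.48% in WT and 13.0% in KO, and Pdgfa 80.5% and 56.3%. Pdgfa was still the most abundant of the 3 in both libraries. The PDGF receptors, which were on a list of further pathway genes, were present in both. Pdgfra was at 10.8 FPKM in WT and 12.3 FPKM in KO, and Pdgfrb at 54.5 and 80.2 FPKM.

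FGF ligands were present at widely different levels. Fgf7, a ligand that acts mainly on an epithelial splice form of Fgfr2, was the most abundant ligand of all 17, at 82.6 FPKM in WT and 92.2 FPKM in KO. Fgf10, which acts on the same receptor form, lies on chromosome 13 from 118806327 to 118928672 on the plus strand and was at 8.95 FPKM in WT and 22.4 FPKM in KO, an estimated 1134 and 2471 fragments. Its log2 fold change was 1.23, above that of 98.1% of all genes, against 0.16 for Fgf7. Fgf2, basic FGF and a mitogen for myoblasts, differed little, with 5.23 and 5.74 FPKM and a log2 fold change of 0.11. Fgf1, acidic FGF, was near 0, at 0.046 and 0.043 FPKM. Fgf10 made up 9.25% of the summed FGF ligand level in WT and 18.6% in KO.

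Among FGF receptors, Fgfr1 gave most of the RNA. It was at 59.6 FPKM in WT and 64.1 FPKM in KO, a log2 fold change of 0.10. Fgfr2 was at 3.24 FPKM in WT and 6.02 FPKM in KO, a log2 fold change of 0.73, and which splice form this was cannot be read from values per gene. Fgfr3 was at 0.780 FPKM in WT and 0.362 FPKM in KO, below the filter. Fgfr4, a receptor known from differentiating myoblasts, was at 0.012 FPKM in WT, an estimated 1 fragment, and listed at 0 in KO. The share of Fgfr1 in the summed FGF receptor level was 93.7% in WT and 91.0% in KO.

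EGF-family ligands differed in direction among themselves. Areg, amphiregulin, which binds EGFR, lies on chromosome 5 from 91287451 to 91296291 on the plus strand. It was at 5.65 FPKM in WT and 1.59 FPKM in KO, an estimated 172 and 42 fragments. Its log2 fold change was -1.36, and 2.07% of all genes had a lower value. Ereg, epiregulin, lies close by on the same strand, from 91222157 to 91241505, and was at 22.9 FPKM in WT and 17.2 FPKM in KO, a log2 fold change of -0.39. Hbegf, heparin-binding EGF, was at 14.1 and 12.4 FPKM, with -0.17. Nrg1, neuregulin 1, which binds ERBB3 and ERBB4, was at 10.7 FPKM in WT and 14.5 FPKM in KO, with 0.41. The 4 levels summed to 53.3 FPKM in WT and 45.7 FPKM in KO, and the share of Areg was 10.6% and 3.47%.

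Their receptors were led by Erbb2, which has no ligand of its own and pairs with the others. Erbb2 was at 12.3 FPKM in WT and 11.99 FPKM in KO, a log2 fold change of -0.03. Egfr was at 3.19 FPKM in WT and 4.80 FPKM in KO, with 0.47. The Nrg1 receptors were scarce. Erbb3, whose kinase domain is impaired, was at 0.096 FPKM in WT and 0.024 FPKM in KO, an estimated 17 and 4 fragments. Erbb4 was at 0.003 FPKM in WT and listed at 0 in KO. Insr, the insulin receptor, was at 3.97 and 4.72 FPKM, with a log2 fold change of 0.20.

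HGF and its receptor MET, which act in satellite cell activation and migration, differed in opposite directions by less than 2-fold. Hgf was at 8.88 FPKM in WT and 16.3 FPKM in KO, a log2 fold change of 0.81. Met was at 37.7 FPKM in WT and 33.0 FPKM in KO, with -0.19. Mst1r, the related receptor of macrophage-stimulating protein, was near 0, at 0.016 and 0.018 FPKM, an estimated 2 fragments in each.

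Of the VEGF ligands, Vegfa and Vegfb were abundant and Vegfc was less so, while their main receptors were listed at 0. The means of Vegfa and Vegfb were above those of 78.66% and 85.23% of genes past the filter, and that of Vegfc above 32.55%. Vegfa was at 47.9 FPKM in WT and 36.0 FPKM in KO, a log2 fold change of -0.40. Vegfb was at 56.0 and 61.2 FPKM, with 0.13, and Vegfc at 9.32 and 8.38 FPKM, with -0.14. Kdr and Flt4, the principal receptors of VEGF-A and VEGF-C in endothelium, were listed at 0 in both libraries, and the angiopoietin receptor Tek and its relative Tie1 were at most 0.017 and 0.009 FPKM. Flt1, which binds VEGF-A and VEGF-B and also has a soluble form, was the exception. It was at 0.09 FPKM in WT and 1.10 FPKM in KO, an estimated 18 and 191 fragments. The KO value was 12.2 times the WT value, yet its mean of 0.594 FPKM kept it below the filter, and its log2 fold change, 0.95, understates that ratio. Flt1 lies on the minus strand of chromosome 5, from 147498414 to 147662826. Of the 7 endothelial markers, summed at 3.82 FPKM in WT and 4.51 FPKM in KO, Cdh5, Cldn5 and Emcn were listed at 0 in both libraries, and Egfl7 was at 3.77 and 4.41 FPKM. Their part in the Flt1 difference was not tested.

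The TAM receptors act in cell survival and in the clearance of dying cells. GAS6 and protein S are ligands of the family, though not every member binds both. The family held the most abundant receptor of the list. Axl was at 117 FPKM in WT and 169 FPKM in KO, with a log2 fold change of 0.52, and its mean was above that of 94.3% of all genes. Tyro3 was at 6.68 and 7.60 FPKM, with 0.16. Mertk was at 2.57 FPKM in WT and 1.79 FPKM in KO, with -0.35. Gas6 itself was at 1.68 FPKM in WT, an estimated 134 fragments, and listed at 0 in KO. Its mean of 0.84 FPKM was below the filter. An exact 0 in such values can be a failed estimate, and with no counts the difference of Gas6 is given without a fold. Pros1, which encodes protein S and was on the list of further ligands, was at 13.1 FPKM in WT and 16.0 FPKM in KO. Which of the TAM receptors it could act on was not examined.

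RNA of KIT ligand was present while that of its receptor was listed at 0. Kitl was at 34.3 FPKM in WT and 52.2 FPKM in KO, a log2 fold change of 0.59. Kit and Flt3 were listed at 0 in both libraries, and Csf1r, the receptor of macrophage colony-stimulating factor, was at 0.054 and 0.078 FPKM. These 3 receptors are best known from haematopoietic cells, and of the 7 haematopoietic markers 4 were listed at 0 in both libraries, while Cd34 was at 136 and 10.6 FPKM and Cd68 at 2.85 and 1.06 FPKM.

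The discoidin domain receptors, which are activated by collagen, were both higher in KO. Ddr2 was at 28.4 FPKM in WT and 44.5 FPKM in KO, with a log2 fold change of 0.63. Ddr1 was at 19.9 FPKM in WT and 26.8 FPKM in KO, with 0.42. Together their levels summed to 48.3 FPKM in WT and 71.4 FPKM in KO. Neither passed 2-fold.

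Receptors linked to WNT signals differed in direction. Ptk7, a receptor with an inactive kinase domain that acts in planar cell polarity, lies on chromosome 17 from 46875376 to 46940446 on the minus strand. It was at 11.4 FPKM in WT and 4.91 FPKM in KO, an estimated 1379 and 519 fragments. The log2 fold change of -1.07 was the only one among the 14 receptors past the filter to go beyond 2-fold. Ryk, a WNT receptor that also lacks kinase activity, was at 43.0 FPKM in WT and 50.8 FPKM in KO, with 0.24. Ror2, a WNT5A receptor, was at 2.69 and 2.01 FPKM, with -0.29, and Ror1 was at 0.141 FPKM in WT and 0.020 FPKM in KO, an estimated 23 and 3 fragments. The remaining receptors are known mainly from neurons. Ntrk2, Ntrk3, Ret and Alk were each at most 0.017 FPKM in either library.

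**Figure D2:**
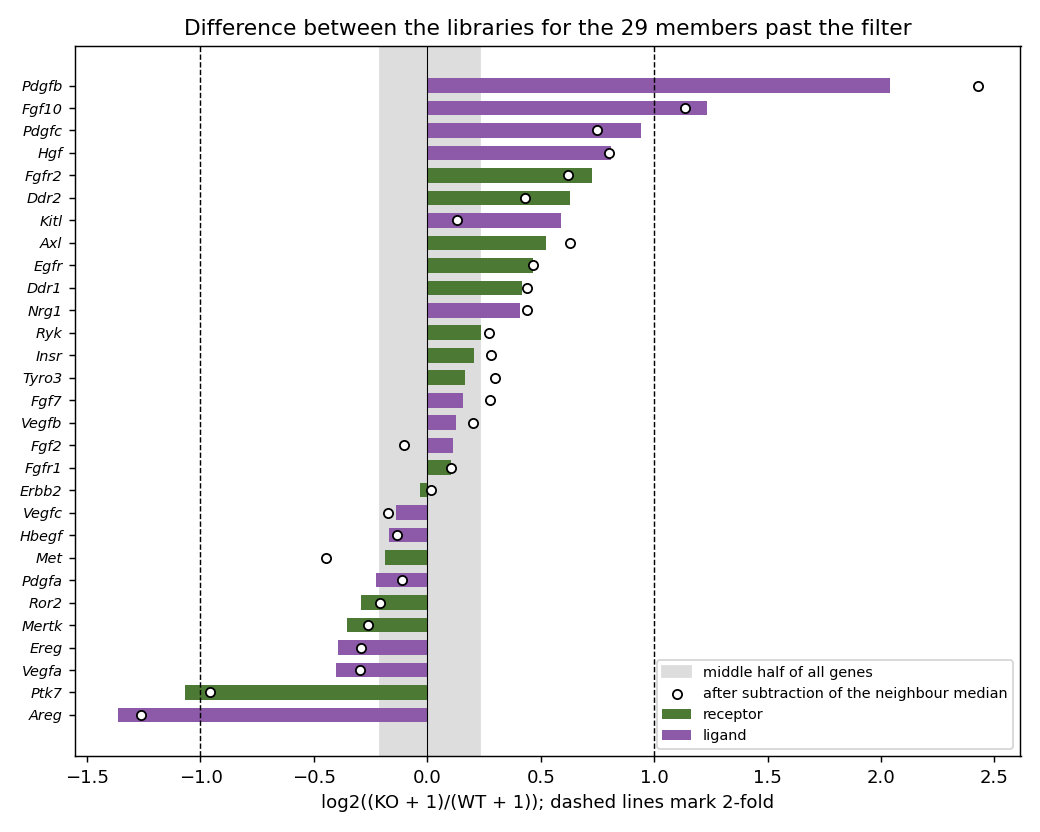
Bars give log2((KO + 1)/(WT + 1)) for the 29 members past the filter, receptors in green and ligands in purple, and open circles give the same value less the neighbour median. Pdgfb and Fgf10 lie beyond the dashed 2-fold line on the right and Ptk7 and Areg beyond that on the left, and the circle of Ptk7 lies inside it.

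Stretches of neighbouring genes were in places shifted together between the libraries. Each member was therefore set beside its neighbours, meaning genes that passed the filter and lay no more than 5 Mb away. Around Pdgfb, 17 of 152 neighbours were higher in KO, and their median was -0.39, so Pdgfb differed in the direction opposite to the genes around it and reached 2.43 after subtraction of that median. Around Fgf10, 8 of 14 neighbours were higher, with a median of 0.09, and Fgf10 kept 1.14. Around Areg, 11 of 28 were higher, with a median of -0.10, and Areg kept -1.26. Around Ptk7, 23 of 64 were higher, with a median of -0.11, which left Ptk7 at -0.96 and within 2-fold. On this scale 3 of the 29 members were past 2-fold, 2 higher and 1 lower, and of all genes 2.62% were past it upward, 2.64% downward and 5.26% in either direction. Kitl, on chromosome 10, had the highest neighbour median of all members, 0.46, and 0.13 remained of its difference. Met moved away from 0, from -0.19 to -0.44, and Erbb2 and Fgf2, both close to 0, changed sign.

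**Figure D3:**
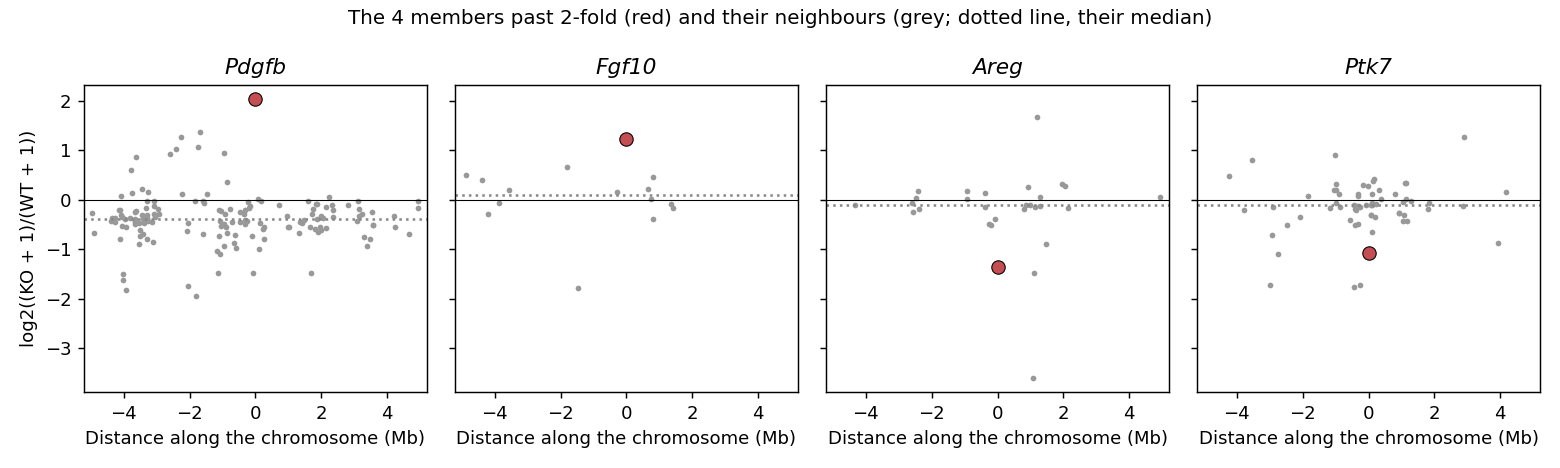
The log2 fold change of the 4 members past 2-fold (red) and of the genes within 5 Mb of each (grey), by distance along the chromosome, with a dotted line at the median of the neighbours. Pdgfb stands at 2.04 above neighbours with a median of -0.39, while Ptk7, at -1.07, has neighbours with a median of -0.11.

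What of the pathway around these receptors and ligands? Further genes were grouped in 8 lists, and of the 117 genes past the filter 8 exceeded 2-fold upward in KO and 6 downward, where 2.84% and 3.43% of all genes did. The upward count includes Angpt4, Spry1, Il17rd and Etv1, which passed the filter only through KO and so could only be higher. The downward count includes Fgf11 and Gfra2, which passed only through WT and so could only be lower. After subtraction of the neighbour median the counts were 6 and 4. The 6 included the adaptor Gab1, which was at -0.14 before subtraction and so was not among the 8. Scaling by the median of ratios gave 7 and 7, with Gdnf, a ligand of the GFRA-RET receptor at -0.9989, past the lower threshold. Of 45 other ligands 31 were below the filter, 15 of them listed at 0 in both libraries, and 14 passed it. Ptn, pleiotrophin, was higher, at 12.9 FPKM in WT and 93.9 FPKM in KO, a log2 fold change of 2.77. Angpt4, an angiopoietin, was at 0.462 and 2.696 FPKM, with 1.34, and Il34, an alternative ligand of CSF1R, at 2.68 and 7.10 FPKM, with 1.14. Less its neighbour median Il34 was at 0.87, within 2-fold. Fgf11, an intracellular FGF homologue, was lower, at 3.06 and 0.461 FPKM, with -1.47, and so was Flt3l, the FLT3 ligand, at 5.01 and 1.77 FPKM, with -1.12. Angpt4 passed the filter only through KO, and Fgf11 only through WT. The list median was -0.11, and it was 0.14 over genes with a mean of 5 FPKM or more.

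Other receptors and coreceptors had a median of 0.49 over 7 genes past the filter, with 1 higher and 1 lower. Without the filter, when genes at 0 enter, the median was 0. Nrp1, a coreceptor of VEGF and semaphorins, was at 7.07 FPKM in WT and 22.03 FPKM in KO, with a log2 fold change of 1.51. Gfra2, the coreceptor of neurturin, was at 9.77 FPKM in WT and 0.795 FPKM in KO, with -2.59, and it passed the filter only through WT. Its signalling partner Ret was near 0 in both libraries.

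None of 20 RAS-ERK genes and none of 13 PI3K-AKT genes past the filter went beyond 2-fold, against 6.27% of all genes, a share at which lists of this size would hold few such genes. Their medians were 0.11 and 0.33, and after subtraction of the neighbour median that of the PI3K-AKT list was 0.21. In the PI3K-AKT list 11 of 13 genes were higher in KO by some amount, where 50.7% of all genes were, and values ran from -0.17 for Inppl1, a lipid phosphatase, to 0.60 for Phlpp1, a phosphatase of AKT. Of 18 adaptors only Shc2 was called, at 21.1 FPKM in WT and 5.49 FPKM in KO, with a log2 fold change of -1.77, and the median was -0.02. Gab1, a docking protein, was at 7.42 FPKM in WT and 6.66 FPKM in KO, with -0.14, and at 1.31 less its neighbour median of -1.45.

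Feedback inhibitors and ERK-responsive genes bear on signalling downstream of the receptors. Of 19 feedback inhibitors past the filter 2 were higher and 0 lower, where 2.84% and 3.43% of all genes were. Spry1, a Sprouty protein that restrains FGF signalling, was at 0.156 FPKM in WT and 3.06 FPKM in KO, with 1.81, and Il17rd, which encodes the FGF antagonist Sef, was at 0.392 and 1.79 FPKM, with 1.004. Il17rd was within 2-fold, at 0.99, less its neighbour median. Both were below 1 FPKM in WT and passed the filter only through KO. A gene let through in that way can only be higher in KO, so the count of 2 leans upward. Their list median was 0.0068, and Spry2 and Spry4 had log2 fold changes of -0.64 and 0.16. Of 17 ERK-responsive genes 1 was higher and 2 were lower, with a median of 0.0091. Etv1, an ETS factor, was at 0.417 FPKM in WT and 4.52 FPKM in KO, with 1.96, and it too passed the filter only through KO. Its relatives Etv4 and Etv5 had 0.12 and 0.38. Junb was at 282 and 98.2 FPKM, with -1.51, and Ier2 at 173 and 69.5 FPKM, with -1.30. Both lie on chromosome 8 among neighbours with a median of -1.45, and after its subtraction they were at -0.07 and 0.15.

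Among 9 proteases and cofactors that release or process ligands, Adam12, a sheddase of heparin-binding EGF, was higher, at 4.58 FPKM in WT and 12.1 FPKM in KO, a log2 fold change of 1.23. Its neighbours had a median of 0.45, and 0.78 remained after subtraction. Adam17 and Adam10, the main sheddases of EGF-family ligands, had -0.18 and 0.38, and Furin, which cleaves growth factor precursors, had 0.31.

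**Figure D4:**
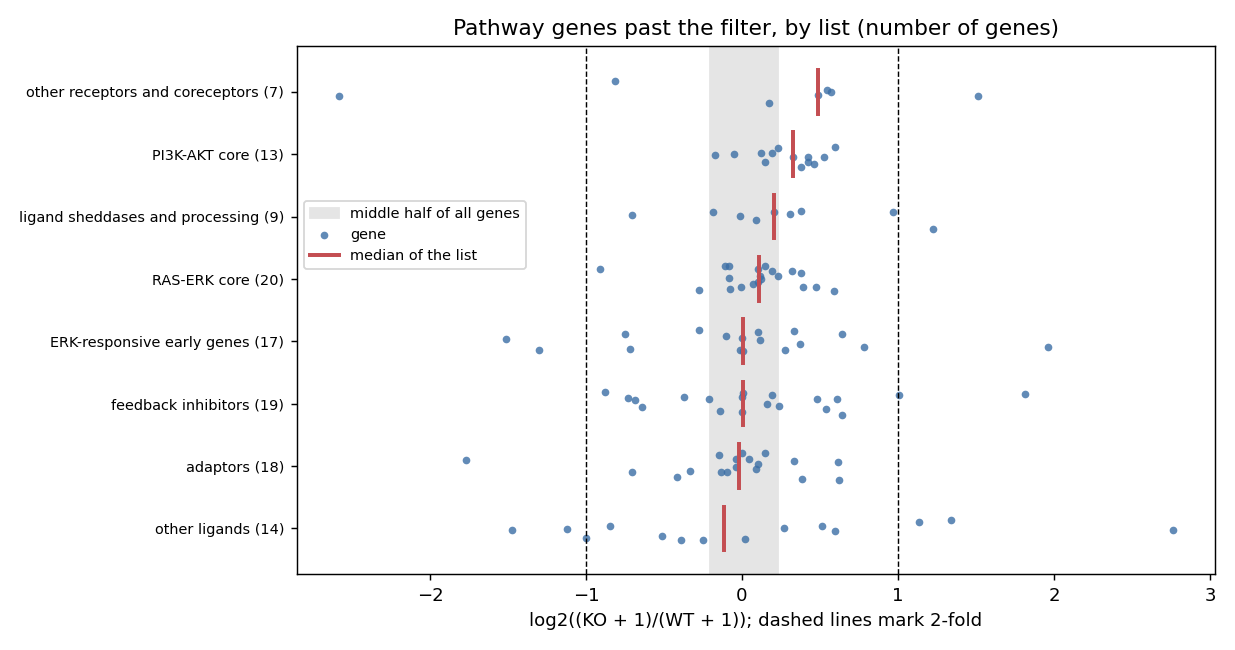
Each point is a gene past the filter, placed by log2((KO + 1)/(WT + 1)) and grouped by list, with a red line at the list median, grey for the interquartile range of all genes and dashed lines at 2-fold. The RAS-ERK and PI3K-AKT genes all lie between the dashed lines, and the points beyond them belong to the other 6 lists.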

How the data were processed

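RNA of 1 WT and 1 Gne KO C2C12 culture was sequenced. Per the submitters' processing notes, the authors used Trim Galore 0.6.6 for trimming, STAR 2.7.9a for alignment and RSEM 1.3.3 for quantification. The study methods name another STAR version and GRCm39, where the notes have GRCm38, and differ from the labels on library kit and sequencer. The authors deposited 1 value per gene symbol, taken here as FPKM from the values, since no unit is named. The methods name TPM, and a TPM table cut to these genes would look alike. The column totals were 568543 in WT and 574253 in KO. The annotation is not given in the sources used here.

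The table had 21853 rows. For 24 repeats of a symbol, only the more abundant row was used. With 1 library per group no test was run, and the methods' adjusted p-value could not be applied. A pseudocount of 1, a filter at a mean of 1 FPKM and a threshold of 2-fold were used. The members and gene lists were chosen with earlier results of these data known. All 49 members were accounted for, those of at least 1 FPKM in either library with full values. From the other lists, genes past 2-fold were named, and a few more were named after their values were seen. Positions came from GENCODE vM39 on GRCm39, found for 10363 of the 10542 genes past the filter, and distances used the lower coordinate of each gene. For estimated fragments, values between 0.01 and 0.3 FPKM in genes with 1 transcript were multiplied by transcript length less 200 bases. The first step was 0.0336 in WT, from 26 of 210 genes, and 0.0385 in KO, from 19 of 227 genes. These settings were chosen after the values were seen. The calculations were tested on simulated data. Python 3.11.15, numpy 2.4.6, pandas 2.3.3 and matplotlib 3.10.9 were used. As alternatives, values were scaled by median-of-ratios factors, the pseudocount was set to 0.1 or 5, the filter was dropped or raised to 5 FPKM, rows of 1 symbol were summed, and the neighbour median was subtracted.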

Additional observations from a re-analysis of the deposited data

How the results depend on the processing

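Each line had 1 library, so leaving out a replicate was not possible, and depth limits the low members most. No paired analysis was possible because no test was run on these libraries, 1 per line. Counts had to shift by over 1.5 times to be called moved, and other values by over 0.44, the interquartile range of all genes on the log2 scale. Of the 350 values recomputed 23 moved and 0 called differences changed sign.

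With a pseudocount of 5, the 2 higher and 2 lower members became 0 and 0, so that higher ligands were 0, lower ligands 0 and lower receptors 0. All genes then gave 102 higher and 176 lower, and higher pathway genes numbered 2. With a mean of at least 5 FPKM, which tests fewer genes, 1 member was higher and 1 lower, with 1 higher and 0 lower ligands, 145 higher and 221 lower genes overall and 3 higher pathway genes. Without a filter, 2 ligands were lower, since Gas6 was then counted. After subtraction of the neighbour median, 1 member was lower and 0 receptors were, since Ptk7 was then at -0.96. Scaling by the median of ratios, with a factor of 1.009, and summed rows of 1 symbol moved none of the values beyond these limits. With a pseudocount of 0.1, 3 members were higher, Pdgfc among them, and all genes gave 410 higher and 471 lower. The median of other receptors and coreceptors was 0 without a filter, and Kitl was at 0.13 less its neighbour median. The log2 fold change of Pdgfb ranged from 0.88 to 3.17 over the alternatives, and that of Areg from -1.77 to -0.69.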
